A study of Mus musculus with 24 samples.

Results

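The mitochondrial genome encodes 37 RNAs, and all 37 had a row in the expression table, out of 55487 genes in all. They were taken as every row whose gene symbol starts with mt-, and they comprise 13 mRNAs, 2 rRNAs and 22 tRNAs. The kidneys came from 24 male mice with X-linked Alport syndrome (XLAS), a hereditary glomerular disease of the collagen chain gene Col4a5, on the B6 background at 15 weeks of age. Every mouse carried the XLAS mutation. They were either heterozygous (HET, 13 mice) or wild type (WT, 11 mice) for Nbl1, which encodes a secreted antagonist of bone morphogenetic proteins. Batch 1 held 6 HET and 6 WT mice and batch 2 held 7 HET and 5 WT mice. Each library is a separate mouse per its label, and the labels give no account of what differed between the batches. Replicate numbers follow the order of deposition and pair no mice.

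Mitochondrial DNA is transcribed from both strands into long RNAs that are cut at the tRNAs, which releases the mRNAs and rRNAs between them. The mRNAs encode core subunits of the respiratory chain and of ATP synthase, the rRNAs form the mitochondrial ribosome, and the tRNAs decode the mRNAs inside the organelle. Most mouse mitochondrial mRNAs carry short poly(A) tails, and the rRNAs very short ones, whereas mature tRNAs end in CCA. Tubule cells of the kidney, above all those of the proximal tubule and the thick ascending limb, are rich in mitochondria. The libraries were made from total RNA with an mRNA kit designed to capture poly(A) RNA, per the labels 1 kit for both batches, and a level here is that of the RNA captured and counted.

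Of the 37 members, 28 lie on the plus strand of the mitochondrial sequence and 9 on the minus strand, namely 8 tRNAs and mt-Nd6. A total of 16 members passed the filter on low counts, namely all 13 mRNAs, both rRNAs and the tRNA mt-Ts1. The other 21 tRNAs were not tested. Batch 1 libraries were sequenced to a depth of 29551543 to 33020033 counts and those of batch 2 to 36380502 to 50746817. In bulk tissue, fewer cells of a type and less RNA per cell cannot be told apart.

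The labels were checked by Nbl1 itself and by Htr6, a gene beside it whose counts separated the genotypes of batch 2, and 3 libraries of batch 1 went against them. Nbl1 stood at 3.86 to 4.89 CPM (counts scaled to library size) in the other 5 HET libraries of batch 1 and at 6.996 to 7.78 CPM in the other 4 WT libraries. It was 9.24 CPM in the library labelled HET replicate 6 and 3.62 CPM in the library labelled WT replicate 2. In the library labelled WT replicate 1 it was 5.41 CPM, between the other HET and WT libraries. Htr6 had 0 counts in the library labelled HET replicate 6, and 26 and 14 counts in those labelled WT replicates 1 and 2, whereas the other HET libraries of batch 1 had 8 to 39 counts and the other WT libraries at most 1. In batch 2 Nbl1 overlapped between the genotypes, at 4.22 to 7.82 CPM in HET and 6.999 to 15.1 CPM in WT, while Htr6 was at 12 to 49 counts in HET and at most 2 in WT. Results of batch 1 and over all mice that change without these 3 libraries are given with and without them. Kidney markers were present, with batch medians of 5785 and 4145 CPM for Lrp2 (proximal tubule) and 2454 and 3312 CPM for Umod (thick ascending limb). The muscle gene Ckm reached at most 0.464 CPM, and the brown fat gene Ucp1 ranged from 0 to 43.8 CPM.

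Several members cannot be counted apart from copies of mitochondrial DNA in the nuclear genome, and their sequences are shown here because the batch values of 5 mRNAs turn on them. In GENCODE M21, 7 unprocessed pseudogenes with at least 99% identity to a mitochondrial mRNA lie in 1 run on chromosome 1, chr1:24611535-24616197 on GRCm38, minus strand. They match mt-Nd4 (Gm28439), mt-Nd4l (Gm10222), mt-Nd3 (Gm28438), mt-Co3 (Gm28437), mt-Atp6 (Gm10925), mt-Co2 (Gm28661) and the end of mt-Co1 (Gm29216). The copies of mt-Nd4, mt-Nd4l, mt-Co3, mt-Atp6 and mt-Co2 were 100% identical over 876, 294, 783, 678 and 681 aligned bases. Gm28438 differed from mt-Nd3 by 1 substitution, T3C, in 345 bases, and Gm29216 differed from mt-Co1 by 1 substitution, A1066T, in 483 bases. Positions are counted from the first base of the mitochondrial transcript. The transcript sequences below are from GENCODE M21. In the first 4, the differing base is in capitals. In mt-Atp6 and Gm10925, which do not differ, the capitals mark the 43 bases that mt-Atp6 shares with the end of mt-Atp8 on the same strand.
mt-Nd3: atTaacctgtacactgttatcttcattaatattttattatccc
Gm28438: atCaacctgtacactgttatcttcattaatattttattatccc
mt-Co1: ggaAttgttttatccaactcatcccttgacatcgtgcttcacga
Gm29216: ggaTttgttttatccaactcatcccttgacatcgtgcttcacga
mt-Atp6: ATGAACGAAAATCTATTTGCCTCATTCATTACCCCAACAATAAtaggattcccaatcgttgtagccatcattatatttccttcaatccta
Gm10925: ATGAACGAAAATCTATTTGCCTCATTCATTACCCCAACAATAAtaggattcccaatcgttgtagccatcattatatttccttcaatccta
The stretches of mt-Nd3, mt-Co1 and mt-Atp6 lie at chrMT:9459-9501, chrMT:6390-6433 and chrMT:7927-8016, plus strand. Those of Gm28438, Gm29216 and Gm10925 lie at chr1:24613077-24613119, chr1:24616145-24616188 and chr1:24614562-24614651, minus strand.

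The counts of a gene and its copy were split unevenly, and the split differed between the batches. For mt-Atp6, a subunit of the proton channel of ATP synthase, 40.8% to 68.1% of the counts of the pair were in the mitochondrial row in batch 1 and 4.29% to 5.91% in batch 2. For mt-Nd3, a subunit of complex I, the share was 52.7% to 80.4% in batch 1 and 15.5% to 22.4% in batch 2. For mt-Co3, a subunit of complex IV, it was 3.64% to 11.01% in batch 1 and 0.701% to 4.42% in batch 2. The shares of mt-Atp6 and mt-Nd3 did not overlap between the batches.
For mt-Co2, the complex IV subunit that takes electrons from cytochrome c, the mitochondrial row held 1.62% to 7.39% in batch 1 and 1.44% to 4.74% in batch 2. Its own row counted 6888 to 25841 per library and the row of Gm28661 counted 296245 to 680108. For mt-Nd4l of complex I the share moved the other way, from 13.5% to 32.4% in batch 1 to 24.8% to 55.5% in batch 2. At least 97.9% of the counts of the mt-Co1 pair were in the mitochondrial row of every library, and Gm29216 had 200 to 37021 counts. Gm28439 had 0 counts in all 24 libraries although its 876 bases match mt-Nd4. How reads that match both places were assigned was not given in the sources used here.
Adding the copy narrowed the spread between libraries of a batch for mt-Atp6, mt-Co2, mt-Co3, mt-Nd3 and mt-Nd4l, but not for mt-Co1 in batch 2, where the coefficient of variation was 10.8% alone and 11.1% with Gm29216, or for mt-Nd4, whose copy had no counts. In batch 1 it was 28.9% for mt-Atp6 alone and 10.2% with its copy, 42.6% for mt-Co3 alone and 6.99% with its copy, and 30.2% for mt-Nd4l alone and 9.63% with its copy. In batch 2 it was 50.9% for mt-Co3 alone and 11.3% with its copy, while mt-Atp6 went from 17.7% to 15.0%. Results for these mRNAs are therefore given for the member row and for the sum.

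**Figure D1:**
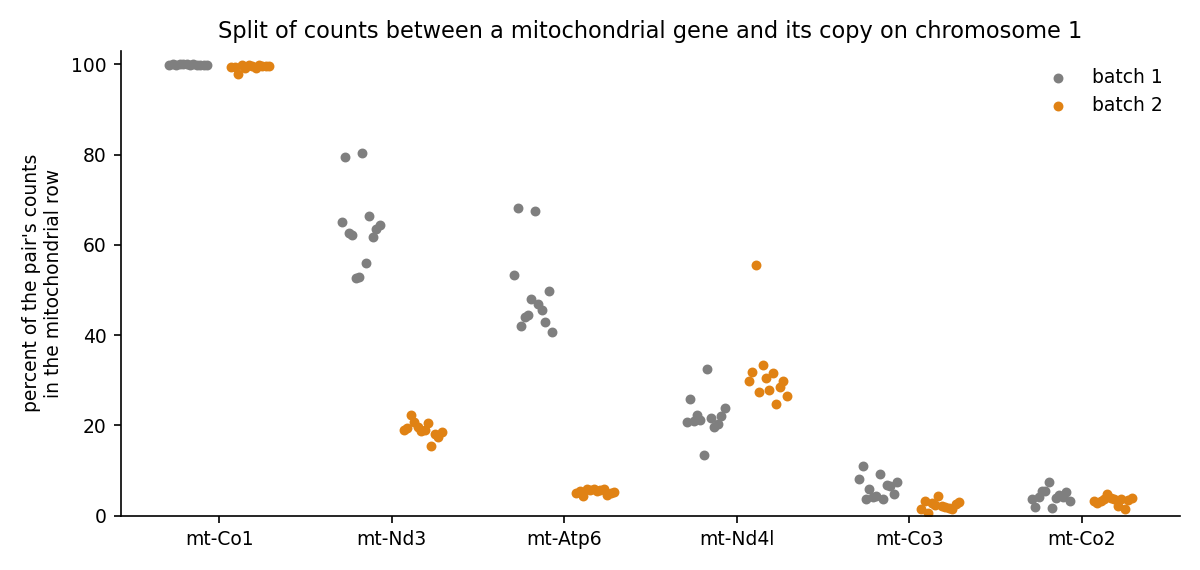
Percent of the counts of a mitochondrial mRNA and its near-identical copy on chromosome 1 that fell in the mitochondrial row (vertical axis), with 1 point per library, coloured by batch, for 6 pairs. The points of mt-Atp6 lie between 40.8% and 68.1% in batch 1 and between 4.29% and 5.91% in batch 2, and those of mt-Co1 lie at or above 97.9% in both batches.

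By class, the mRNAs took most of the mitochondrial counts. In batch 1 the 13 mRNAs held 7.51% to 8.78% of the counts of HET libraries (mean 7.88% ± 0.475, SD, n = 6) and 7.46% to 9.60% of those of WT libraries (mean 7.99% ± 0.806, SD, n = 6). In batch 2 they held 8.36% to 11.4% in HET (mean 9.27% ± 1.04, SD, n = 7) and 8.32% to 10.9% in WT (mean 9.31% ± 1.01, SD, n = 5). HET and WT overlapped in both batches, and their means lay closer together than 1 SD. The batches overlapped too, with medians of 7.72% and 9.22%. With the copies added, the share was 10.1% to 12.6% in batch 1 and 11.2% to 15.4% in batch 2.
The 2 rRNAs held 0.0354% to 0.0824% of the counts of HET libraries in batch 1 (mean 0.0486% ± 0.0182, SD, n = 6) and 0.0399% to 0.116% of those of WT libraries (mean 0.0737% ± 0.0288, SD, n = 6). In batch 2 they held 0.638% to 1.07% in HET (mean 0.828% ± 0.173, SD, n = 7) and 0.499% to 0.666% in WT (mean 0.560% ± 0.0683, SD, n = 5). Every library of batch 2 was above every library of batch 1. Within each batch the genotypes overlapped, with HET lower on average in batch 1 and higher on average in batch 2.
Summed over the 22 tRNAs, a library of batch 1 had 21 to 66 counts (median 48.5) and a library of batch 2 had 2 to 19 (median 12.5). The ranges did not overlap although batch 2 was sequenced more deeply. No p-value is given for these sums, since the members were chosen with results known.

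**Figure D2:**
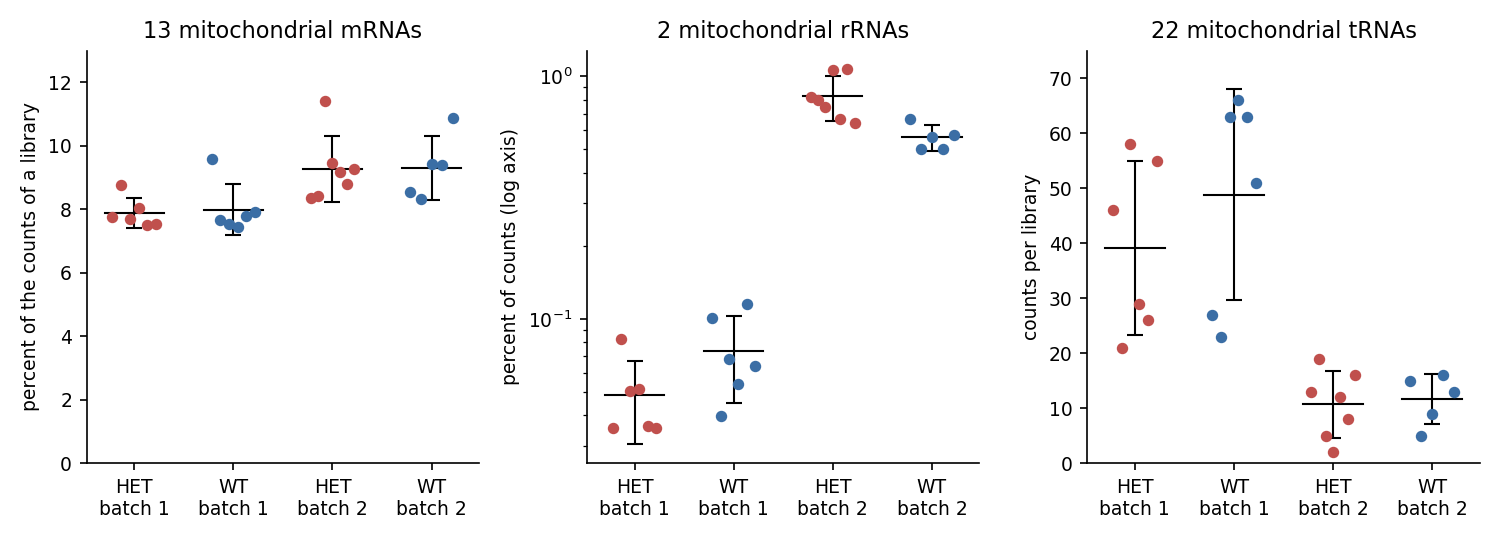
Share of the counts of a library in the 13 mRNAs (percent, linear axis) and the 2 rRNAs (percent, log axis), and the counts in the 22 tRNAs, by batch and genotype, with 1 point per library. The rRNA shares run from 0.0354% to 0.116% in batch 1 and from 0.499% to 1.07% in batch 2, and HET and WT overlap within each batch in all 3 panels.

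Levels were compared between genes on the deposited TPM scale, which corrects for length, as mean ± SD over 12 libraries. They are compared within a batch only. On this scale the median log2 fold change of all genes between the batches was 0.69, higher in batch 2. The highest value in both batches was that of mt-Atp8, a small subunit of ATP synthase, at 19327 ± 2780 TPM in batch 1 and 47121 ± 14415 TPM in batch 2. This value depends on the length used. With the annotated lengths of mt-Co1 and mt-Nd5 taken as the scale, the deposited counts and TPM of mt-Atp8 imply a median length of 28.9 bases in batch 1 and 35.8 bases in batch 2, against 204 annotated bases. Other short mRNAs were affected too. In batch 1 the implied medians were 96.2 of 297 bases for mt-Nd4l, 144 of 348 for mt-Nd3 and 328 of 519 for mt-Nd6. Per annotated base, with counts scaled to the deposited total of a library and no TMM factor, mt-Atp8 averaged 3.53 in batch 1, and mt-Co1, the catalytic subunit of complex IV, averaged 17.4.
Next among the member rows on the TPM scale came mt-Co1 with 13463 ± 828.6 TPM in batch 1 and 36411 ± 2379 TPM in batch 2. The complex III subunit mt-Cytb followed with 9079 ± 544 and 23937 ± 2511 TPM, and the complex I subunit mt-Nd1 with 7171 ± 430 and 17274 ± 1837 TPM. In batch 1, mt-Nd1 and mt-Cytb differed by more than the sum of their SDs.
Of the other complex I subunits, mt-Nd4 stood at 5809 and 14865 TPM, mt-Nd2 at 4035 and 11861 TPM, and mt-Nd5 at 3812 and 9295 TPM in batches 1 and 2. mt-Nd2 and mt-Nd5 did not differ beyond their spread in batch 1. The only mRNA on the minus strand, mt-Nd6, was at 380 and 1209 TPM and was the lowest mRNA in batch 1. The rows with a copy, other than mt-Co1 and mt-Nd4, ranged from 704 TPM (mt-Co2) to 6333 TPM (mt-Nd3) in batch 1. In batch 2 they ranged from 670 TPM (mt-Co3) to 7198 TPM (mt-Nd4l). For mt-Co2 and mt-Co3 most counts of the pair were in the copy in every library. With the copy added, their batch 1 medians were 10496 CPM over 684 bases and 10874 CPM over 784 bases. That of mt-Cytb was 11761 CPM over 1144 bases. The order of genes given here is therefore that of the member rows only. The small-subunit rRNA mt-Rnr1 was at 161 ± 88.1 TPM in batch 1 and 6995 ± 2630 TPM in batch 2. The large-subunit rRNA mt-Rnr2 was at 210 ± 78.7 and 3558 ± 589 TPM. All 22 tRNAs were listed at 0 TPM in every library.

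Batch 2 was then compared with batch 1, with genotype in the model. By edgeR's quasi-likelihood test at an adjusted p under 0.05, 63.5% of the 18339 genes tested differed between the batches, 32.6% being higher and 30.9% lower in batch 2. Of the 16 members tested, 11 were higher in batch 2 and 4 were lower, and mt-Co2 was not called. The libraries of the batches did not overlap for 5 of the 16 members, namely mt-Rnr1, mt-Rnr2, mt-Co1, mt-Atp6 and mt-Nd3, against 20.4% of all genes. With the copies on chromosome 1 added, mt-Atp6 and mt-Nd3 overlapped between the batches and mt-Co1 did not.

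The rRNAs differed most. The level of mt-Rnr1 was 80.0 to 402 CPM in batch 1 (median 139) and 2031 to 7585 CPM in batch 2 (median 3527). That of mt-Rnr2 was 217 to 726 CPM in batch 1 (median 379) and 2347 to 5635 CPM in batch 2 (median 3577). In both cases the lowest library of batch 2 was above the highest of batch 1. The log2 fold change was 4.52 for mt-Rnr1 (SE 0.35, 22.9-fold, 95% interval 13.9 to 37.8, adjusted p = 1.36e-10). It was 3.18 for mt-Rnr2 (SE 0.23, 9.04-fold, interval 6.52 to 12.5, adjusted p = 3.46e-11).

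Among the mRNAs without a near-identical copy, or with nearly all of the pair's counts in their own row, every one was higher in batch 2. mt-Co1 ranged from 23664 to 29389 CPM in batch 1 (median 25296) and from 31635 to 45667 CPM in batch 2 (median 34994), and the ranges did not overlap. Its log2 fold change was 0.51 (SE 0.05, 1.42-fold, interval 1.32 to 1.54, adjusted p = 1.59e-09). mt-Cytb ranged from 10723 to 14653 CPM in batch 1 and from 13375 to 22988 CPM in batch 2, with a log2 fold change of 0.48. The batches overlapped for mt-Cytb.
The complex I subunits rose by 0.36 (mt-Nd1), 0.64 (mt-Nd2), 0.44 (mt-Nd4) and 0.36 (mt-Nd5) on the log2 scale. mt-Nd6 ranged from 115 to 200 CPM in batch 1 and from 133 to 413 CPM in batch 2, a log2 fold change of 0.76 (SE 0.13, 1.70-fold, adjusted p = 3.37e-05). mt-Atp8, which overlaps mt-Atp6 by 43 bases, was 471 to 974 CPM in batch 1 and 486 to 2167 CPM in batch 2, a log2 fold change of 0.72.

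The rows with a near-identical copy behaved differently from their sums. The row of mt-Atp6 held 3178 to 6769 CPM in batch 1 and 432 to 736 CPM in batch 2, a log2 fold change of -2.90 (SE 0.14, adjusted p = 1.41e-14). The sum of mt-Atp6 and Gm10925 was 6852 to 10042 CPM in batch 1 and 7423 to 12438 CPM in batch 2, a log2 fold change of 0.34 in the other direction (adjusted p = 0.00015). mt-Co3 turned in the same way, from -1.30 alone (adjusted p = 0.000407) to 0.18 with Gm28437 (adjusted p = 0.00685).
mt-Nd3 was at 710 to 1938 CPM in batch 1 and 128 to 346 CPM in batch 2, a log2 fold change of -2.34. With Gm28438 added it was 1343 to 2410 and 827 to 1669 CPM, and the log2 fold change was -0.57 (SE 0.11), still lower in batch 2. mt-Co2 went from -0.04 alone (adjusted p = 0.862) to 0.30 with Gm28661 (adjusted p = 0.00026), and mt-Nd4l from 0.92 to 0.43 with Gm10222.
With the copies added, all 13 mRNAs passed the test, 12 of them higher in batch 2 and 1, mt-Nd3, lower. Their median log2 fold change was 0.43, beside a median of 0.03 over all genes. Scaling by total counts shifted the median of all genes to -0.11 and the deposited TPM shifted it to 0.69. On the TPM scale mt-Co2 was at 0.87 and the call of mt-Co3 was lost. mt-Ts1 is listed at 0 TPM in every library and could not be tested on that scale.

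**Figure D3:**
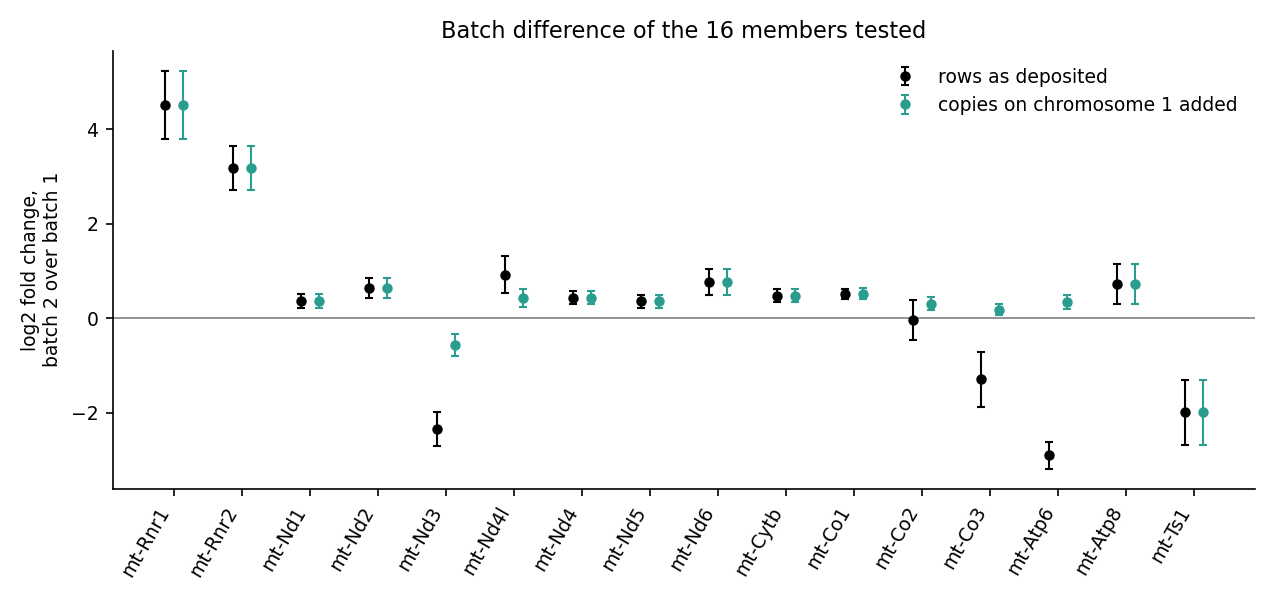
Log2 fold change of batch 2 over batch 1 for the 16 members tested (vertical axis), for the member row and for the row with its copy on chromosome 1 added; bars are 95% intervals. mt-Rnr1 and mt-Rnr2 stand at 4.52 and 3.18, and mt-Atp6 moves from -2.90 to 0.34 when its copy is added.

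Only 12 of the 22 tRNAs had a count in any library, and 10 had none. A count of 0 allows up to 3 counts, a share of 5.91e-06% to 1.02e-05% of a library, which covers counting error only. The 2 tRNAs with the highest counts were mt-Ts1 (serine), on the minus strand at chrMT:6870-6938, and mt-Tm (methionine), on the plus strand at chrMT:3845-3913. Both sequences are printed because these tRNAs had the most counts, in lower case with no base marked.
mt-Ts1: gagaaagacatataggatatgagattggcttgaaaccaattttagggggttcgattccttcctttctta
mt-Tm: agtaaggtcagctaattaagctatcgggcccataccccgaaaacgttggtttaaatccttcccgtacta
In batch 1 mt-Ts1 had 6 to 29 counts and in batch 2 it had 0 to 12, and its log2 fold change was -1.99 (SE 0.34, adjusted p = 6.91e-06). It overlaps mt-Co1 by 3 bases on the opposite strand, and the strand setting of the counting was not given in the sources used here. mt-Tm had 4 to 17 counts in batch 1 and 0 to 6 in batch 2 and was not tested.

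Other RNAs moved with the batch, and their part in the mitochondrial results was not tested. CT010467.1, annotated as a nuclear rRNA gene, ranged from 11.7 to 1928 CPM in batch 1 and from 48253 to 219983 CPM in batch 2, a log2 fold change of 8.33. In the opposite direction, all 15 tested genes of a list of nuclear RNAs made without a poly(A) tail were lower in batch 2, with a median log2 fold change of -8.71. Their summed level was 54780 to 73245 CPM in batch 1 and 33.6 to 136 CPM in batch 2. These RNAs in batch 1 and the nuclear rRNA row in batch 2 were abundant although the kit was described as capturing poly(A) RNA. The cause was not tested. Rn7sk, an RNA that holds an elongation factor inactive, went from 9103 to 12394 CPM down to 21.6 to 93.0 CPM.
Cell type markers were read beside the 63.5% of all genes that differed. All 5 erythrocyte markers were higher in batch 2, with summed levels of 150 to 496 CPM in batch 1 and 261 to 961 CPM in batch 2 over both genotypes. Of 7 markers of the thick ascending limb and distal convoluted tubule, 5 were higher and 0 lower, with summed levels of 5004 to 5876 CPM and 6194 to 7931 CPM. Of 6 podocyte markers 5 were higher and 0 lower, and of 7 collecting duct markers 5 were higher and 0 lower. Of 10 proximal tubule markers 3 were higher and 2 lower, and of 9 leukocyte markers 4 were higher and 1 lower, both below that share.

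HET was compared with WT to see whether loss of 1 Nbl1 copy went with a change in mitochondrial RNA. No member passed edgeR's quasi-likelihood test over all mice, in batch 1, in batch 2 or in the interaction of genotype with batch. Among all 18339 genes the share called was 0% over all mice, 0% in batch 1, 0.00545% in batch 2 (1 gene, no member) and 0% in the interaction. Unadjusted p-values under 0.05 were reached by 4.12%, 2.78%, 8.34% and 8.2% of genes. Without the 3 libraries that go against their labels, 2 genes were called over all mice and 2 in batch 1, and no member was among them. Limma voom called no member in any of these comparisons. DESeq2 called 2 members in batch 2, mt-Nd6 and mt-Rnr2, both at an adjusted p of 0.0471, among 26 genes, and no member elsewhere.

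In batch 1 the log2 fold changes of HET over WT for the mRNAs ran from -0.25 to 0.29, and none was called. Of 13 mRNAs, 2 had a positive and 11 a negative log2 fold change, with a median of -0.04 (3 positive with total counts, 8 on the TPM scale). Without the 3 libraries that go against their labels the tally turned round, with 11 positive and 2 negative and a median of 0.05, or 12 and 1 with a median of 0.04 when the copies were added. mt-Co1 had a median of 24897 CPM in HET and 25976 CPM in WT and a log2 fold change of -0.04 (SE 0.05, 0.972-fold, interval 0.903 to 1.05). mt-Nd6 was at 175, 148, 171, 163, 137 and 137 CPM in HET replicates 1 to 6 and at 200, 115, 130, 131, 172 and 180 CPM in WT replicates 1 to 6. The groups overlapped throughout, and the fold was 1.00 (interval 0.808 to 1.247). The 2 mRNAs of smallest p were mt-Nd4l and mt-Atp8, and neither was called. Leaving out 1 library, the log2 fold change ran from -0.345 to -0.0451 for mt-Nd4l and from -0.229 to -0.0708 for mt-Atp8. Without the 3 libraries that go against their labels mt-Nd4l was at 0.0818.
The rRNAs were lower on average in HET but not beyond the spread. mt-Rnr2 was at 248, 564, 366, 340, 217 and 243 CPM in HET replicates 1 to 6 and at 720, 303, 446, 393, 726 and 435 CPM in WT replicates 1 to 6. The highest WT libraries were WT replicate 5 and the library labelled WT replicate 1. The log2 fold change was -0.61 (SE 0.30, 0.655-fold, interval 0.416 to 1.03, unadjusted p = 0.0652, adjusted p = 1). Without the 3 libraries that go against their labels it was -0.53.
mt-Rnr1 was at 80.0, 238, 110, 151, 127 and 83.1 CPM in HET and at 264, 81.0, 195, 110, 402 and 183 CPM in WT. Its log2 fold change was -0.64 (SE 0.41, unadjusted p = 0.150, adjusted p = 1), and -0.66 without those 3 libraries. The tRNA mt-Ts1 was at -0.49, and at -0.78 without those 3 libraries, on at most 29 counts.

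In batch 2 all 13 mRNAs had a positive log2 fold change for HET over WT, with a median of 0.23, or 0.12 with the copies added, beside 0.0012 for all genes; with total counts or TPM 8 of 13 were positive. Total counts shifted the median of all genes to -0.13. Summed marker levels had unequal medians between the genotypes of batch 2 as well, with overlapping ranges and 0 of their genes called by edgeR, and their part in the result was not tested. The summed level of the 7 thick ascending limb and distal tubule markers was 6740 to 7931 CPM in HET (median 7132) and 6194 to 7059 CPM in WT (median 6466). The 5 erythrocyte markers summed to 329 to 961 CPM in HET (median 513) and 261 to 660 CPM in WT (median 311). The 8 fat markers summed to 48.3 to 251 CPM in HET (median 88.5) and 51.1 to 245 CPM in WT (median 223). The 10 proximal tubule markers summed to 25184 to 32302 CPM in HET (median 30477) and 25785 to 31257 CPM in WT (median 27986). Medians of the collecting duct and leukocyte markers were higher in HET as well. Those of the podocyte markers and of the skeletal and heart muscle markers were lower in HET. mt-Co1 had a median of 36372 CPM in HET and 34266 CPM in WT and a log2 fold change of 0.11 (SE 0.08, interval 0.956 to 1.21 as a fold, adjusted p = 0.705), and its sign turned with total counts and TPM. mt-Nd3 had a log2 fold change of 0.35 (SE 0.18, unadjusted p = 0.0836, adjusted p = 0.628) in its own row and of 0.21 (SE 0.15, unadjusted p = 0.185, adjusted p = 0.697) with Gm28438 added.
mt-Nd6 was the only member whose genotypes did not overlap in batch 2, against 0.545% of all genes, and no member separated in batch 1, against 0.0872%. It was at 271, 311, 363, 413, 271, 376 and 272 CPM in HET replicates 7 to 13 and at 262, 199, 217, 133 and 205 CPM in WT replicates 7 to 11. The lowest HET value and the highest WT value were 271 and 262 CPM, so the gap was small. The log2 fold change was 0.66 (SE 0.16, 1.58-fold, interval 1.23 to 2.03, unadjusted p = 0.00193, adjusted p = 0.539).
mt-Rnr2 was at 3800, 3515, 4478, 5320, 3608, 5635 and 3561 CPM in HET and at 3139, 2347, 2975, 2741 and 3592 CPM in WT. WT replicate 11 was inside the HET range, and the other 4 WT libraries were below it. The log2 fold change was 0.51 (SE 0.14, 1.42-fold, interval 1.16 to 1.75, unadjusted p = 0.00239, adjusted p = 0.539).
mt-Rnr1 was at 4882, 4939, 3790, 7585, 3298, 7239 and 2958 CPM in HET and at 3756, 2473, 2480, 2031 and 2283 CPM in WT. WT replicate 7 was above 2 HET libraries and the other WT libraries were below all of them. The log2 fold change was 0.91 (SE 0.27, 1.88-fold, interval 1.24 to 2.83, unadjusted p = 0.00643, adjusted p = 0.548). mt-Ts1 had a log2 fold change of -0.06 on at most 12 counts.

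The difference between the batches in the HET against WT comparison was tested by the interaction. Its log2 value was 1.14 for mt-Rnr2 (SE 0.34, unadjusted p = 0.00289, adjusted p = 0.532), 1.57 for mt-Rnr1 (SE 0.50, unadjusted p = 0.00519, adjusted p = 0.557) and 0.68 for mt-Nd6 (SE 0.22, unadjusted p = 0.0067, adjusted p = 0.557). None passed the threshold. Without the 3 libraries that go against their labels these values were 1.04, 1.56 and 0.61. mt-Nd2 stood at 0.37 (unadjusted p = 0.0579), mt-Co1 at 0.17 and mt-Ts1 at 0.45.
Over all mice the fold of HET over WT was 1.26 for mt-Nd6 (interval 1.04 to 1.53, log2 0.34, SE 0.13, unadjusted p = 0.0207, adjusted p = 0.997). Without the 3 libraries that go against their labels its log2 fold change was 0.39 (unadjusted p = 0.00767, adjusted p = 0.919). mt-Co2 was at 0.35 (SE 0.20) in its own row and at 0.04 (SE 0.07) with Gm28661 added. mt-Rnr1 was at 0.12 (SE 0.31), mt-Rnr2 at -0.06 (SE 0.21) and mt-Ts1 at -0.34 (SE 0.33). All 13 mRNAs were positive, with a median of 0.06, and 7 of 13 were with total counts or TPM. Without those 3 libraries the median was 0.16, or 0.09 with the copies added.

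**Figure D4:**
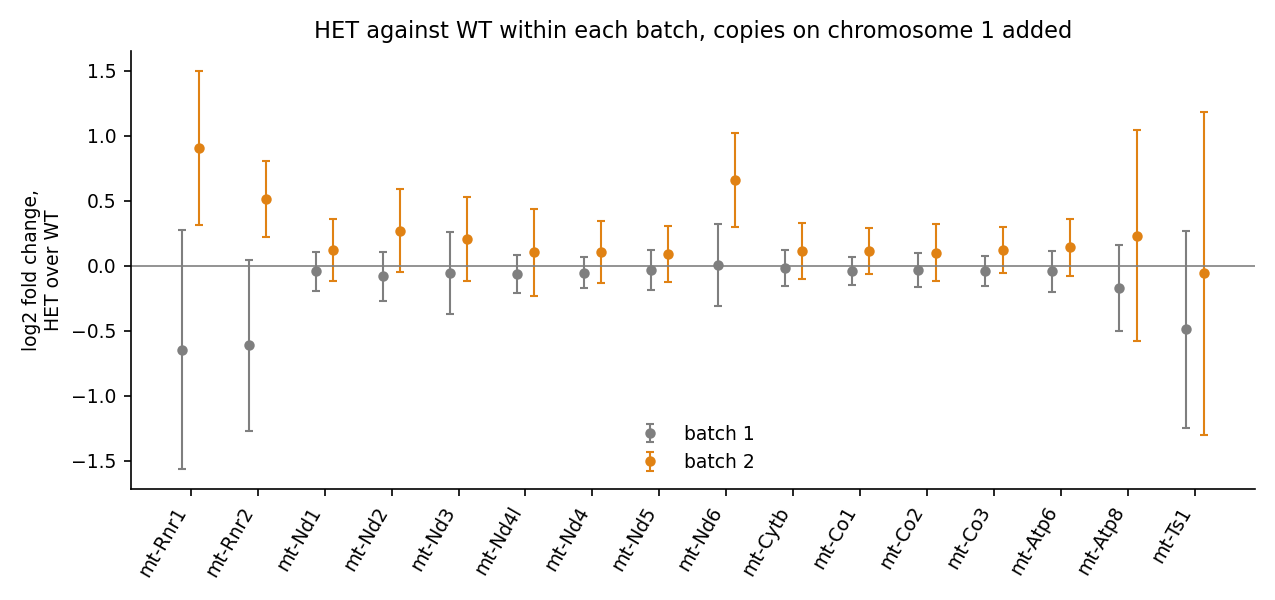
Log2 fold change of HET over WT (vertical axis) within batch 1 and within batch 2 for the 16 members tested, with the copies on chromosome 1 added; bars are 95% intervals. The rRNAs are at -0.64 and -0.61 in batch 1 and at 0.91 and 0.51 in batch 2, and no member passed the adjusted threshold.

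Within batch 2, mt-Rnr1 varied with the nuclear rRNA row CT010467.1 from library to library. In batch 2 CT010467.1 was 79541 to 219983 CPM in HET (median 134181) and 48253 to 119559 CPM in WT (median 62254). Its log2 fold change of HET over WT was 0.93 (SE 0.34, unadjusted p = 0.0198, adjusted p = 0.579). For the correlations, counts were scaled to the library total less CT010467.1, without TMM factors, and taken as log2. Across the 12 libraries of batch 2, Pearson's r of CT010467.1 with mt-Rnr1 was 0.976 and Spearman's rho was 0.951. The permutation p-values were 1e-05, the smallest that 100000 permutations can give, and 4e-05. Adjusted over 8 relations these were 8e-05 and 0.00032. CT010467.1 was chosen after its values were seen, and the adjustment covers these 8 relations only. The p-values of these correlations are therefore descriptive. Without HET replicates 10 and 12, the libraries farthest from the median, r was 0.958. Among the 7 HET libraries alone r was 0.970 and rho 0.893 (exact permutation, adjusted p = 0.00741 and 0.0328), and r was 0.989 without HET replicates 9 and 13. The 5 WT libraries were too few for a value of their own. Permutation over the 12 libraries shuffled HET and WT together. CT010467.1, mt-Rnr1, mt-Rnr2 and mt-Nd6 had higher medians in HET than in WT in batch 2. The p-values over 12 libraries therefore include any shared genotype difference.
For mt-Rnr2 r was 0.695 and rho 0.678 (permutation p adjusted to 0.0229 and 0.0379), but r was 0.374 without HET replicates 10 and 12, so the relation rests on those 2 libraries. Among the HET libraries alone r was 0.684 and rho 0.536 (exact permutation, adjusted p = 0.161 and 0.314). For mt-Nd6 r was 0.817 and rho 0.811 (permutation p adjusted to 0.00344 and 0.00792), and 0.715 without those libraries. Among the HET libraries alone r was 0.648 and rho 0.607 (exact permutation, adjusted p = 0.161 and 0.267). For mt-Co1, the most counted mRNA, r was 0.0198 and rho 0.133 over 12 libraries (permutation p adjusted to 0.954 and 0.781), and r was -0.235 with rho 0.143 in HET alone (exact permutation, adjusted p = 0.770 and 0.783). Without HET replicates 9 and 13, r among the HET libraries was 0.790 for mt-Rnr2, 0.905 for mt-Nd6 and 0.547 for mt-Co1, whose sign turned.
In batch 1 the libraries fell into separate clusters for CT010467.1, so no pooled correlation is given. In 5 libraries it was 11.7 to 31.1 CPM, with mt-Rnr1 at 80.0 to 110 CPM and mt-Rnr2 at 243 to 393 CPM. In the other 7 it was 165 to 1928 CPM, with mt-Rnr1 at 127 to 402 CPM and mt-Rnr2 at 217 to 726 CPM, so mt-Rnr1 separated and mt-Rnr2 overlapped. The 5 lower libraries were 3 HET and 2 WT. The part of these nuclear rRNA counts in the mitochondrial result was not tested.

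**Figure D5:**
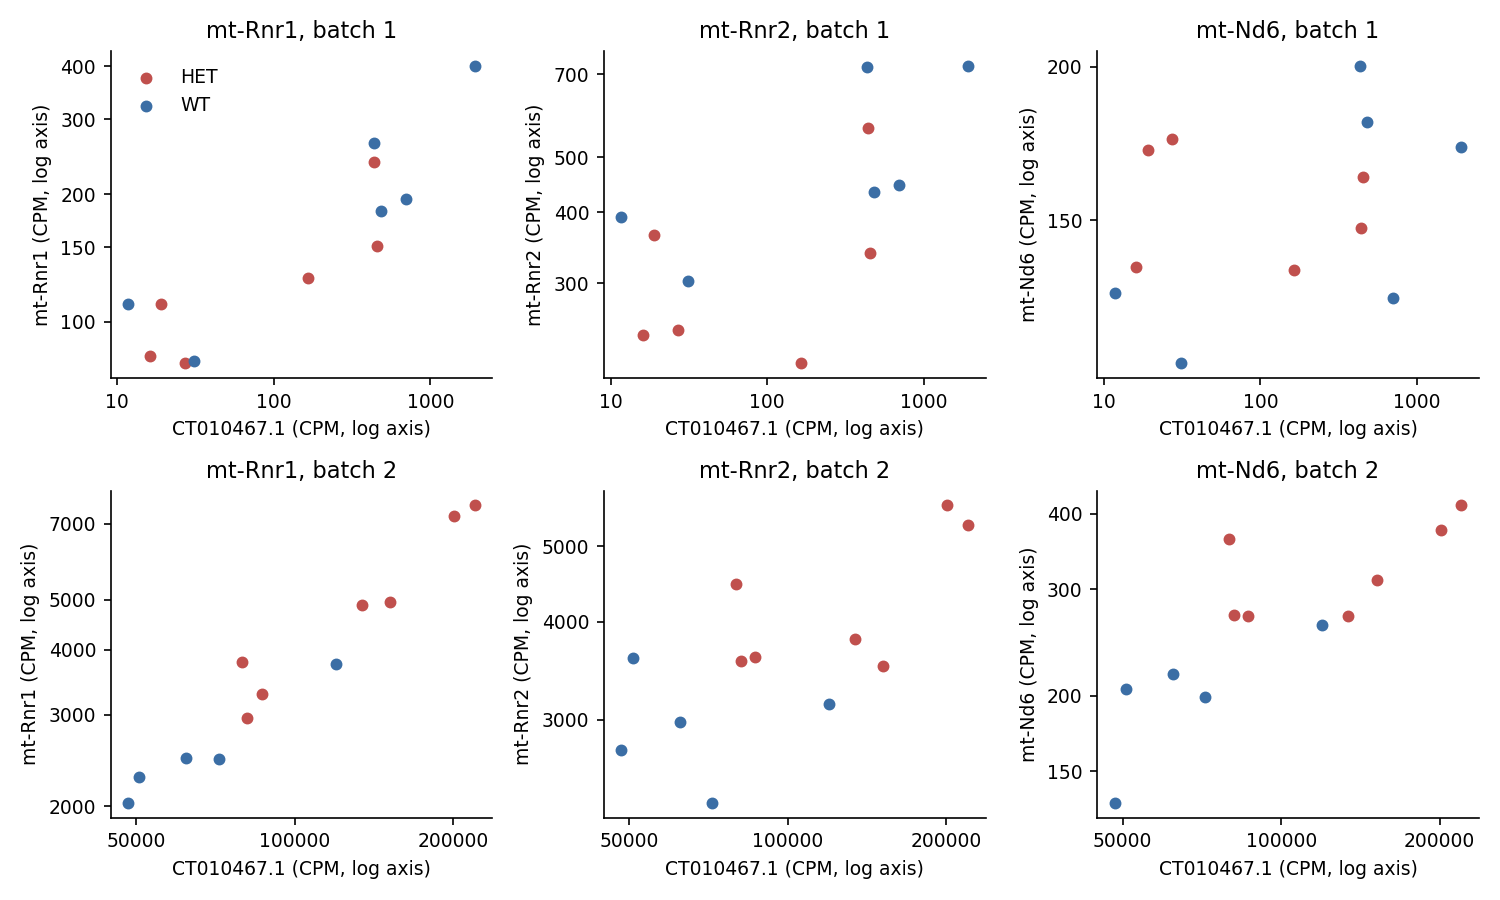
Level of a mitochondrial RNA (CPM, log axis) against that of the nuclear rRNA row CT010467.1 (CPM, log axis), by batch, with 1 point per library coloured by genotype. In batch 2 mt-Rnr1 climbs with CT010467.1 (r = 0.976, n = 12). This r was taken on counts scaled to the library total less CT010467.1, not on the CPM plotted. In batch 1 the libraries lie in a cluster of 5 at up to 31.1 CPM and a cluster of 7 from 165 CPM upward.

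Single libraries were high or low in several mRNAs at once. In batch 1 the library labelled WT replicate 1 was the highest of 12 in 11 of the 13 mRNAs, and in 13 with the copies added. HET replicate 2 was among the highest 2 in 10. The library labelled HET replicate 6 was lowest in 6 and WT replicate 4 in 4. In batch 2 HET replicate 9 was highest in 7 mRNAs and HET replicate 10 in 4, and WT replicate 8 was lowest in 9.

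Nuclear genes that act on mitochondrial RNA were counted from lists. None of them passed the test for HET against WT in any of the 4 comparisons. The counts between the batches stand beside 32.6% of all genes higher and 30.9% lower, and 4 of the 6 lists had a smaller share called than the 63.5% of all genes. Between the batches, 13 of 22 genes of RNA processing, stability and decay were higher in batch 2 and 3 were lower, among them Slirp, which stabilises mitochondrial mRNAs with Lrpprc, at -0.42 on the log2 scale. Of 11 genes for the polymerase and transcription factors 3 were higher and 2 lower, with Tfam, which packages mitochondrial DNA, at 0.18. The polymerase gene Polrmt was at -0.04 and was not called. Of 10 genes of mitochondrial DNA replication 3 were higher and 3 lower, and of 10 regulators of biogenesis 1 was higher and 5 lower.
Of 17 genes that modify tRNA or rRNA 7 were higher and 1 lower, and of 19 aminoacyl-tRNA synthetases 12 were higher and 2 lower. One of these, Lars2, the leucyl-tRNA synthetase, stood apart at 38.4 to 298 CPM in batch 1 and 1793 to 10772 CPM in batch 2, a log2 fold change of 5.69. In batch 2 its log2 fold change of HET over WT was 1.19 (unadjusted p = 0.0161, adjusted p = 0.579). Lars2 and the nuclear rRNA row CT010467.1 had the same lowest and highest libraries in each batch. These were WT replicates 4 and 5 in batch 1, and WT replicate 10 and HET replicate 10 in batch 2. The part of nuclear rRNA reads in the Lars2 counts was not tested. The smallest p of the transcription list over all mice was that of Mterf1b, a gene of the transcription termination factor family, at 0.45 (SE 0.13, unadjusted p = 0.00122, adjusted p = 0.997), with 0.50 in batch 1 and 0.40 in batch 2.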

How the data were processed

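RNA from 24 kidneys was sequenced. The authors deposited expected counts, TPM and FPKM per gene and library; per the submitters' processing notes, fastp, STAR, featureCounts and the build GRCm38 (mm10) were used. Versions, strand setting and the treatment of reads with several matches were not given in the sources used here. Expected counts as deposited were fractional for 11.8% to 15.4% of genes in a library and were rounded. The FPKM the authors deposited are a fixed multiple of TPM within a library and were not tested.

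Genes were kept with filterByExpr of edgeR 4.0.16 (R 4.3.3; minimum count 10), which left 18339. HET against WT (batch as covariate, within each batch, and the interaction) and batch 2 against batch 1 (genotype as covariate) were tested with edgeR's robust quasi-likelihood test after TMM scaling, with Benjamini-Hochberg adjustment over all genes and a threshold of 0.05. CPM are counts scaled by the TMM library size (factors 0.82 to 1.09), and class shares are percent of the deposited counts. Intervals are at 95%. Counts carry no molecular identifiers, so limits cover counting error only. TPM alternatives used log2 with a pseudocount of 1 in limma 3.58.1; DESeq2 1.42.0 and limma voom were further alternatives. Scripts were tested on simulated data.

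Nuclear copies were found with blastn 2.17.0 against GENCODE M21 transcripts (at least 85% identity over 100 bases); 55141 of 55487 identifiers were in that annotation. No RefSeq sequence was used. Library pairs of 1 genotype and batch, 61 in number, all differed beyond sampling noise (chi-square over degrees of freedom 8.88 or more). For HET replicate 8 the title and library name give different animal numbers.

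The members and lists were chosen with earlier results of these data known. Named were all mRNAs and rRNAs for levels, all tested members for the batch comparison, and for each genotype comparison the 2 members of smallest p and the most counted member of each class, with mt-Nd6. Of the nuclear lists, those of smallest p were to be named. The rule took the 6 tRNAs of highest TPM, but all are at 0 TPM, so the 2 with most counts were named after their values were seen, as were Htr6, CT010467.1, Lars2, Rn7sk, Tfam, Polrmt and Slirp.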

Additional observations from a re-analysis of the deposited data

Results flagged for a closer look

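In groups of 5 to 7 libraries, a library was looked at again when the gap to its nearest neighbour was too large a part of the range of the group (Dixon's 95% value). Chance alone does so in about 1 of 20 groups, and here 19 of 100 groups did; the mRNA groups share libraries, so these are not independent. The library labelled WT replicate 1 accounted for 10 of them, always as the highest WT library of batch 1: mt-Nd1 at 9456 CPM (others 6883 to 7444), mt-Nd2 at 6235 (others 4461 to 4779), mt-Atp6 at 6769 (others 3178 to 4002), mt-Nd3 at 1938 (others 827 to 1173), mt-Nd5 at 11224 (others 8046 to 9005), mt-Cytb at 14653 (others 10723 to 12071), mt-Nd4l at 487 (others 223 to 298), mt-Atp6 with its nuclear copy at 10042 (others 7402 to 8333) and mt-Nd4l with its copy at 1502 (others 1131 to 1249). Its mRNA share was 9.60% of counts (others 7.46% to 7.93%). HET replicate 2 of batch 1 was the highest HET library for mt-Atp6 at 6108 CPM (others 3287 to 4039), for mt-Nd3 at 1803 (others 710 to 1051) and for the rRNA share at 0.0824% (others 0.0354% to 0.0514%).

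In batch 2, HET replicate 9 was the highest HET library for mt-Cytb at 22988 CPM (others 14939 to 18400), for mt-Nd4l at 1022 (others 381 to 572) and for the mRNA share at 11.4% (others 8.36% to 9.46%). WT replicate 11 was the highest WT library for mt-Atp6 at 642 CPM (others 432 to 492) and for mt-Nd5 at 13199.5 (others 10155 to 10358). WT replicate 7 was the highest WT library for mt-Rnr1 at 3756 CPM (others 2031 to 2480); it also had the highest CT010467.1 level of the WT libraries of batch 2.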

How the results depend on the processing

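Few counts, at most 66 per library in all, limit what can be said of the tRNAs, although the deeper batch 2 had fewer of them. The split of reads with the copies on chromosome 1 limits mt-Atp6, mt-Co2, mt-Co3, mt-Nd3 and mt-Nd4l. Under other settings 408 values of named members kept direction and side of the threshold, 21 turned, 2 lost and 2 gained a call (1 loss is mt-Ts1 at 0 TPM, where no test is possible); leaving out 1 library, 810 kept both and 18 turned. The settings that add the copies, alone or together with leaving out the 3 libraries that go against their labels, were chosen after seeing the data. No paired analysis was possible because replicate numbers only follow the order of deposition.

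Members called lower in batch 2 numbered 9 with no filter on low counts, 2 on the TPM scale, and 2 with the copies added, with or without the 3 doubted libraries; DESeq2 called 2 members for HET against WT in batch 2. As shares of TPM, batch 2 over batch 1 was 2.20 for mRNA (counts, 1 library left out: 1.15 to 1.19) and 28.5 for rRNA (11.2 to 12.7), and HET minus WT for rRNA in batch 2 was 0.415 percentage points (0.228 to 0.299). HET against WT log2 values turned for mt-Co1 over all mice (-0.0222 total counts, -0.0104 TPM), in batch 1 (0.0245 TPM, 0.00402 without the doubted libraries and 0.00373 with copies as well), in batch 2 (-0.025, -0.0464) and in the interaction (-0.00538 total counts, -0.0709 TPM). They turned without the doubted libraries, and with copies as well, for mt-Rnr2 over all mice (0.0502, 0.0504) and mt-Nd4l in batch 1 (0.0818, 0.0345), and with voom for mt-Ts1 in batch 2 (0.51). The batch value turned with copies, with and without the doubted libraries, for mt-Co2 (0.30, 0.31), mt-Atp6 (0.34, 0.34) and mt-Co3 (0.18, 0.19), and on the TPM scale for mt-Co2 (0.87). The cause was not tested, except that adding copies changes the row itself.

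Leaving out 1 library gave ranges that cross 0 for mt-Rnr2 over all mice (-0.143 to 0.023), mt-Nd6 in batch 1 (-0.0672 to 0.0906), mt-Ts1 in batch 2 (-0.35 to 0.36) and mt-Co2 between batches (-0.149 to 0.0223). In batch 2 the HET against WT values stayed at 0.78 to 1.08 for mt-Rnr1, 0.44 to 0.59 for mt-Rnr2 and 0.54 to 0.77 for mt-Nd6.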
